A study of Homo sapiens with 9 samples.

Results

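The genes of the secreted growth factors PDGF-C (PDGFC), pleiotrophin (PTN) and GDF15 and of PDGF receptor alpha (PDGFRA) were followed across 2 human colon carcinoma-derived epithelial cell lines on 9 arrays. All probe sets whose RefSeq identifier maps to these 4 genes were taken, which gave 5 of the 1259 probe sets and 4 of the 927 genes with a symbol. PTN had 2 probe sets and each other gene had 1. The genes were chosen because their signal parts the lines, so differences between T84 and Caco-2 are given as a description with no test. T84 cells had received 100 U/ml interferon gamma for 24 hours in the first group. The second group was untreated T84 cells at passage 68, and the third was untreated Caco-2 cells at passage 37, both about 90% confluent in multiwell plates. Each group had 3 arrays, and the sources used here do not give the passage or confluence of the treated cells. Each line is a tumour-derived culture, and the replicates are numbered without a statement that they were separate cultures, so the p-values measure the spread between these arrays, which may be technical. The series was set up to find glycosylation genes linked to a sialylated CD44 epitope that is strongest in treated T84 cells and missing from Caco-2.

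PDGF-C is secreted in a latent form and needs proteolytic cutting before it binds PDGF receptors, PDGF receptor alpha above all. In gut tissue, some PDGF ligands are made by epithelium and the alpha receptor is carried by the mesenchyme beneath it. Pleiotrophin is a heparin-binding cytokine that acts through the receptor phosphatase PTPRZ1 and syndecans, and its only close relative is midkine (MDK). GDF15 is a distant member of the TGF beta superfamily that is released by stressed and tumour cells and signals through the hindbrain receptor GFRAL with its co-receptor RET. GFRAL and RET were on the gene list of GDF15 used below but were not among its measured genes.

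Values are RMA signals on a log2 scale, so a difference of 1 unit is a 2-fold difference. Array medians ran from 6.70 to 6.80, lower quartiles from 5.26 to 5.38, lowest probe sets from 2.80 to 2.94 and highest from 14.34 to 14.55. No detection calls were used here, so whether a dim signal stands above background cannot be told from these values. Caco-2 replicate 1 stood apart from the other Caco-2 arrays. It lay outside both of them at 81.9% of all probe sets, against 46.4% for replicate 2 and 62.7% for replicate 3, and the differences of the 4 genes from Caco-2 are therefore also given without it. The list genes named below as past the test against Caco-2 kept their direction and stayed past it without that array. The lines could be checked against 2 of 12 listed intestinal epithelial markers, LGALS4 and MUC13. Their mean signal per array was 12.39 to 12.47 for treated T84, 12.47 to 12.51 for untreated T84 and 8.30 to 8.47 for Caco-2, with LGALS4 itself at 6.82 to 6.96 in Caco-2. Of the fibroblast, endothelial and leukocyte lists, 3 genes each were measured.

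Upstream sequence was available from RefSeq (GRCh38.p14) for 3 of the 4 genes. It is shown because GDF15 and the PTN and PDGFRA pair have opposite patterns in the lines. Each line holds the 250 bases before an annotated start, 5′ to 3′ on the gene's own strand, in lower case, with any match to the searched motifs in capitals. GDF15 lies on the plus strand at chr19:18385908-18386157, PTN on the minus strand at chr7:137343734-137343983, and PDGFRA has 2 annotated starts on the plus strand, with windows at chr4:54229043-54229292 and chr4:54233710-54233959.
GDF15: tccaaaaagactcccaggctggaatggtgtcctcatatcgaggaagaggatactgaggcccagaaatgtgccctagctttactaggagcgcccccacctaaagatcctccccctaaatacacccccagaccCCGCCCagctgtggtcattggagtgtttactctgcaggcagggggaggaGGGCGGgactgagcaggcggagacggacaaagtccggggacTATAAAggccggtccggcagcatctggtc
PTN: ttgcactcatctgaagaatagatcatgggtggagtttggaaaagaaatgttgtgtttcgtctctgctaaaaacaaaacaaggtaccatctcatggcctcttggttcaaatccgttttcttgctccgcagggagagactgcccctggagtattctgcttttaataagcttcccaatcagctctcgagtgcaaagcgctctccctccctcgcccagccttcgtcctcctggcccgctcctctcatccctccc
PDGFRA, upstream start: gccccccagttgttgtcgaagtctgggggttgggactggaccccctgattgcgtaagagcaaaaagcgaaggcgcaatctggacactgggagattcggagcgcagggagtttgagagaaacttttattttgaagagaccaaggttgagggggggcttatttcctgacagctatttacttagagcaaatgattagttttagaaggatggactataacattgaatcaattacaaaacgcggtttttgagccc
PDGFRA, downstream start: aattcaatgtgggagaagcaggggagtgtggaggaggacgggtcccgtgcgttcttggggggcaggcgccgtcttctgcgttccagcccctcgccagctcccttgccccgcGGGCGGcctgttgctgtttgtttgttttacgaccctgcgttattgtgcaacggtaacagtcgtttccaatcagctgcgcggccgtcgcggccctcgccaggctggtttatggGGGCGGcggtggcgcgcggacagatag
The motifs searched on both strands, from 250 bases before to 50 after each start, were the gamma-activated site TTCNNNGAA, the interferon-stimulated response element (TTTC, any 2 bases, TTTC), the TATA box TATAAA and the GC box GGGCGG. GDF15 held a TATA box from position -29 to -24 before its start. It also held a GC box at -70 to -65 and another at -119 to -114 that reads CCGCCC on the strand shown. The downstream PDGFRA start had GC boxes at -27 to -22 and -139 to -134. The PTN window and the upstream PDGFRA window held none of these letters. Over all 35116 promoters of the table, 11.5% held the TATA box, 45.0% the GC box, 7.7% the gamma-activated site and 3.6% the response element, and no window of these 3 genes held either interferon motif. The GC content was 58.4% for GDF15, 50.4% for PTN, 46.8% for the upstream and 64.0% for the downstream PDGFRA window, beside a median of 58.0% over all promoters. A match of letters is not a bound site, and a missing match says nothing about the factor.

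PDGFC, the gene of a latent PDGF ligand (chromosome 4, 156760454 to 156971799, GRCh38.p14), was dim in every T84 array and bright in every Caco-2 array. Its log2 signal was 4.52, 4.61 and 4.37 in treated T84. The untreated T84 arrays read 4.66, 4.95 and 4.86, and the Caco-2 arrays 9.28, 9.64 and 9.47. The T84 arrays lay below the lower quartile of their arrays, the Caco-2 arrays lay above their medians, and the lines did not overlap. In bulk RNA such as this, fewer cells that carry a transcript and less of it per cell cannot be told apart. Group means were 4.50 ± 0.12, 4.82 ± 0.15 and 9.46 ± 0.18 in treated T84, untreated T84 and Caco-2 (SD, n = 3 each). Set against Caco-2, the signal was 31.2-fold lower in treated and 24.9-fold lower in untreated T84. Without Caco-2 replicate 1 the log2 differences were -5.05 and -4.73, beside -4.96 and -4.64 with all arrays. Its spread within Caco-2 was moderate, with 362 of 1259 probe sets more variable there.

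PTN, the heparin-binding cytokine (chromosome 7, 137227341 to 137343733), showed the same order of groups on both of its probe sets. The probe set with the higher mean carries the suffix x, which marks probes that can cross-hybridise with other transcripts. On it the log2 signal was 3.99, 3.86 and 3.77 in treated T84, 3.79, 3.90 and 3.76 in untreated T84, and 7.95, 9.16 and 8.84 in Caco-2. The other probe set, with no such suffix, read 3.53, 3.50 and 3.31 in treated T84, 3.28, 3.39 and 3.32 in untreated T84, and 6.81, 8.21 and 7.48 in Caco-2. On both, every T84 array was below its lower quartile and every Caco-2 array above its median, with no overlap. The size differed between them. On the suffix x probe set treated T84 read 27.5-fold and untreated T84 28.6-fold lower than Caco-2, while on the other probe set the differences were 16.6-fold and 18.0-fold. Leaving out Caco-2 replicate 1 moved the log2 differences of the suffix x probe set to -5.13 for treated and -5.19 for untreated T84, beside -4.78 and -4.84. On the other probe set they moved to -4.40 and -4.51, beside -4.05 and -4.17.

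PTN was also among the probe sets that varied most within Caco-2. Its SD there was 0.63 on the suffix x probe set and 0.70 on the other, beside a median of 0.104 over all probe sets, and only 41 and 34 of 1259 probe sets were more variable. The SDs were 0.11 and 0.12 among treated and 0.08 and 0.06 among untreated T84 arrays. The wide spread was thus seen in the line where PTN was bright.

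GDF15, the stress-responsive TGF beta family cytokine (chromosome 19, 18386158 to 18389176), ran the other way. Its log2 signal was 12.60, 12.73 and 12.85 in treated T84, 12.62, 12.92 and 12.60 in untreated T84, and 9.36, 9.06 and 9.01 in Caco-2. All 6 T84 arrays were above all Caco-2 arrays, and the T84 groups interleaved. Caco-2 was not dim on this probe set, since its 3 arrays lay above their own medians. Means were 12.72 ± 0.13, 12.71 ± 0.18 and 9.15 ± 0.19 (SD, n = 3 each, in the same order of groups), and the signal was about 12-fold higher in treated T84 and 11.9-fold higher in untreated T84 than in Caco-2. Without Caco-2 replicate 1 the log2 differences were 3.69 and 3.68, beside 3.58 and 3.57. The probe set carries the suffix s, which marks probes shared among transcripts, so it may also read related transcripts.

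PDGFRA, the receptor tyrosine kinase that binds PDGF-C (chromosome 4, 54229293 to 54298245), had the same direction as PDGFC and PTN. Its log2 signal was 4.59, 4.69 and 4.73 in treated T84, 4.68, 4.56 and 4.64 in untreated T84, and 5.61, 6.45 and 6.72 in Caco-2. The lines did not overlap, and Caco-2 replicate 1 stood closest to T84. Set against Caco-2, its signal was 3.01-fold lower in treated and 3.10-fold lower in untreated T84. Its Caco-2 mean of 6.26 ± 0.58 (SD, n = 3) lay below the array medians, and 47 of 1259 probe sets were more variable within Caco-2. Without replicate 1 the log2 differences were -1.92 and -1.96, beside -1.59 and -1.63. Ligand and receptor were therefore both brighter in Caco-2. Where the dim T84 signals of PDGFC, PTN and PDGFRA are background, their folds are lower limits, so the sizes of these genes' differences are not ranked.

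**Figure D1:**
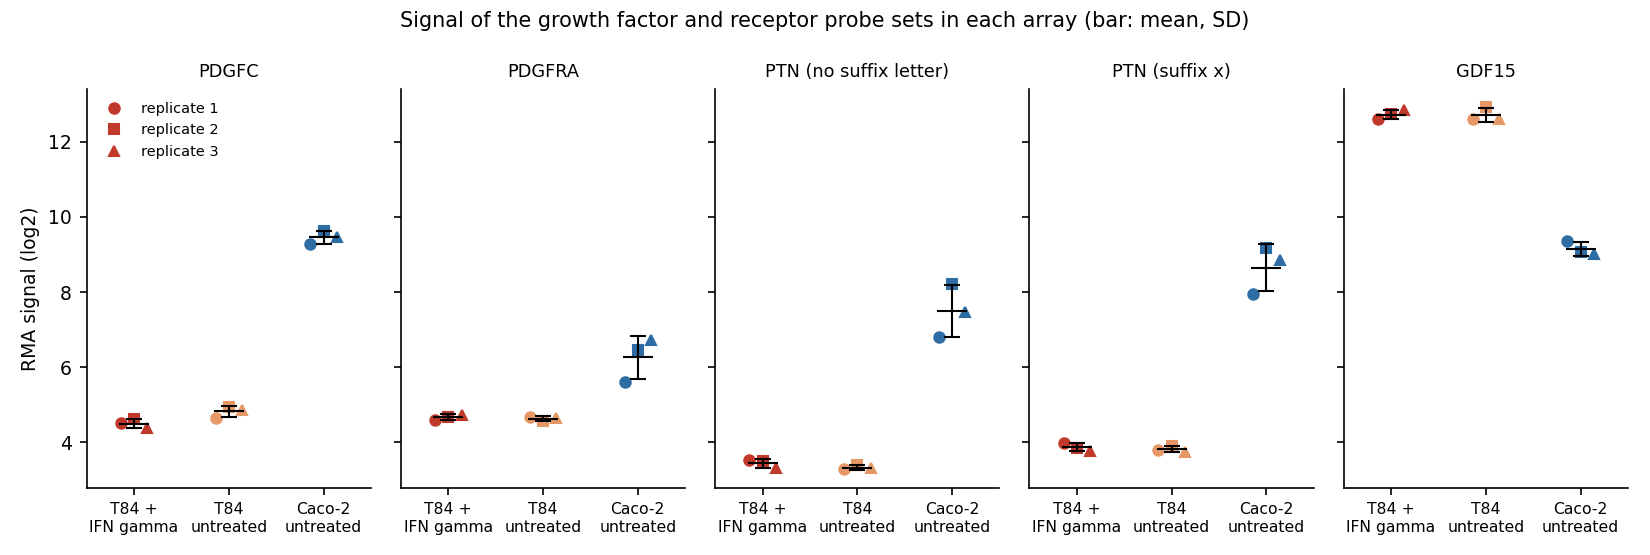
Log2 RMA signal of the 5 probe sets in each of the 9 arrays, by group, with replicates 1 to 3 as separate marks and black bars for the mean and SD (n = 3). PDGFC, PDGFRA and both PTN probe sets are higher in Caco-2 (5.61 to 9.64) than in T84, GDF15 is higher in T84 (12.60 to 12.92), and Caco-2 replicate 1 sits nearest to T84 in every panel.

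None of the 5 probe sets overlapped between T84 and Caco-2. Over all 1259 probe sets the groups did not overlap at 53.5% for treated T84 against Caco-2 and at 49.6% for untreated T84 against Caco-2, and since the genes were picked on this difference nothing is read from their count. A signal at least 16-fold lower in T84 was found at 9 probe sets in each comparison, or 0.715%, and PDGFC and both PTN probe sets were among them. A signal at least 8-fold higher was found at 1.75% of probe sets in treated and 1.03% in untreated T84, GDF15 among them. The choice of genes used this same difference, so nothing is read from these shares either. These 2 comparisons share the Caco-2 arrays, so their values are set side by side and not counted as separate evidence.

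Caco-2 replicate 1 was nearer to T84 than both other Caco-2 arrays at all 5 probe sets. It differed from the mean of replicates 2 and 3 by -1.05 and -1.03 log2 units on the PTN probe sets, -0.98 on PDGFRA, -0.27 on PDGFC and 0.33 on GDF15. Among the 115 probe sets that were at least 2-fold higher in Caco-2 replicates 2 and 3 than in T84, replicate 1 was below both in 37, or 32.2%, and its median difference from them was 0.16. Among the 91 that were at least 2-fold lower there, replicate 1 was above both in 56.0%. The dip of replicate 1 at PTN and PDGFRA was thus not the usual direction among probe sets bright in Caco-2. LUM, a proteoglycan gene on the fibroblast list, was also lowest in that array, at 3.91 beside 4.75 and 4.30. PDGFRB and DCN, the other fibroblast markers measured, were not lowest there. In replicates 1, 2 and 3 PDGFRB read 6.46, 6.43 and 6.29, and DCN 3.51, 3.51 and 3.40. Of the 3 fibroblast markers measured, LUM was higher in Caco-2 than in both T84 groups (log2 differences of -0.71 in treated and -0.72 in untreated T84, limma adjusted p = 0.0103 and 0.00967, n = 3 per group), PDGFRB was higher there as well, and DCN lay between 3.40 and 3.56 in all 9 arrays. LUM and DCN lay below the lower quartile in all 9 arrays. The mean of the fibroblast list per array ran from 4.28 to 4.35 in treated T84, 4.33 to 4.36 in untreated T84 and 4.63 to 4.90 in Caco-2. The endothelial list ran from 5.13 to 5.25, 5.15 to 5.21 and 5.31 to 5.40 in the same groups, and the leukocyte list from 5.55 to 5.64, 5.56 to 5.63 and 5.30 to 5.54. PECAM1 of the endothelial list was also higher in Caco-2, with log2 differences of -0.63 in treated and -0.62 in untreated T84. Its limma adjusted p values were 2.69e-05 and 3.48e-05, while FLT1 and SELE of that list did not pass. CD22 of the leukocyte list was lower in Caco-2 (0.22 and 0.34, limma adjusted p = 0.0408 and 0.00603). The part of these marker genes in the PDGFRA and PTN values was not tested.

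Interferon gamma within T84 was not the difference on which the genes were chosen, though earlier results of these data were known at that choice. None of the 4 genes passed the test in this comparison. The test was limma's moderated test with Benjamini-Hochberg adjustment over all 1259 probe sets and a threshold of 0.05, which called 128 probe sets or 10.2% (4.37% higher and 5.8% lower). The groups did not overlap at 27.5%, and 19.5% had an unadjusted p below 0.05, PDGFC being the 1 member probe set among them. PDGFC came closest. Treated T84 had a log2 difference of -0.32 ± 0.11 (SE, n = 3 per group) from untreated T84, or a ratio of 0.799 (95% confidence interval 0.670 to 0.954), with an unadjusted p of 0.0192 and an adjusted p of 0.137 in limma. All 3 treated arrays were below all 3 untreated arrays, as was the case in this direction for 17.9% of all probe sets. By size it ranked 164th of 1259, beside a median absolute difference of 0.073. Both groups were in the dim range of the array, so a difference of this size concerns a signal close to the floor.

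GDF15 showed the smallest difference. Its log2 difference between treated and untreated T84 was 0.01 ± 0.12 (SE), with a 95% confidence interval from -0.27 to 0.29 and a limma adjusted p of 0.989. As a ratio of treated to untreated T84 the interval ran from 0.828 to 1.23. PTN was at 0.06 ± 0.26 on the suffix x probe set and at 0.12 ± 0.29 on the other (limma adjusted p = 0.963 and 0.93), and PDGFRA at 0.04 ± 0.24 (adjusted p = 0.973). Treated and untreated arrays overlapped for GDF15, PDGFRA and both PTN probe sets.

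The intervals of PTN and PDGFRA were wide because the fit shared its estimate of spread with Caco-2, where these genes varied most. Fitted on the 6 T84 arrays alone, where 13.2% of probe sets passed, the standard error of PTN fell to 0.07 on each probe set and that of PDGFRA to 0.05. The 95% confidence intervals became -0.12 to 0.23 and -0.05 to 0.29 log2 units for the suffix x and the other PTN probe set and -0.09 to 0.18 for PDGFRA. None of the 4 genes passed in this fit either, with limma adjusted p values of 0.0897 for PDGFC, 0.411 and 0.717 for the PTN probe sets, 0.713 for PDGFRA and 0.976 for GDF15. The sizes of the differences were the same as in the fit on 9 arrays by construction. PTN, on both probe sets, and PDGFRA lay below the lower quartile in every T84 array. A change could go unseen where such dim signals are background. Their narrow intervals therefore do not show that interferon gamma left these genes unchanged.

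**Figure D2:**
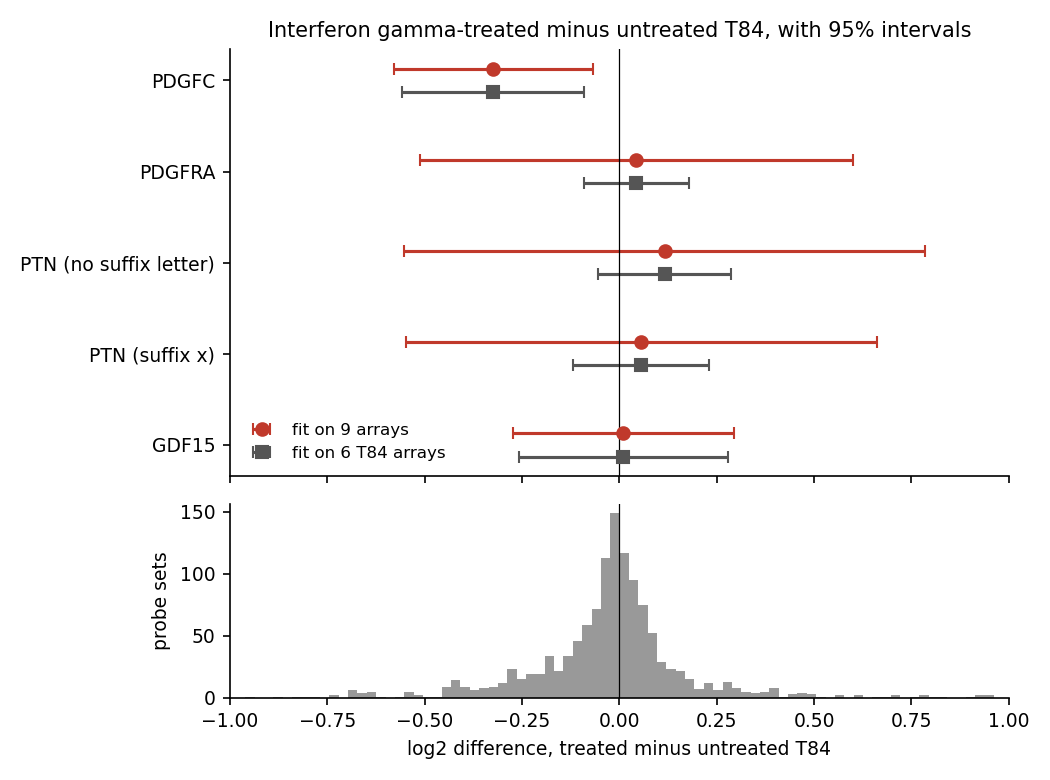
Upper panel, log2 difference of interferon gamma-treated minus untreated T84 for the 5 probe sets, with 95% confidence intervals from the fit on all 9 arrays (circles) and on the 6 T84 arrays (squares). Lower panel, the same difference for all probe sets between -1 and 1, which leaves out 28 probe sets beyond that range. PDGFC lies at -0.32, the others lie between 0.01 and 0.12, and the intervals of PTN and PDGFRA narrow without Caco-2.

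Partners of these genes were followed through 5 lists of growth factors, receptors and proteases with 90 members besides the 4 genes, of which 43 were measured. After interferon gamma 1 rose, 3 fell and 39 did not pass in limma, so 9.3% passed, beside 10.2% of all probe sets, and the median log2 difference was 0.02 beside -0.01 over all probe sets. TGFB1, a TGF beta ligand gene, rose by 0.50 ± 0.09 log2 units (8.82 ± 0.08 in treated and 8.31 ± 0.14 in untreated T84, SD, n = 3; limma adjusted p = 0.00709). ERBB3, a receptor of the EGF receptor family, fell by 0.82 (adjusted p = 0.00112 in limma, n = 3 per group). The syndecan gene SDC1, whose product can bind pleiotrophin, fell by 0.52 (adjusted p = 0.0187), a call that needed each of treated replicates 1 and 2 and untreated T84 replicates 2 and 3 (left out singly, limma adjusted p from 0.061 to 0.0782). TGFB3 fell by 0.20 (adjusted p = 0.0426 in limma), and this call was lost without any 1 of the 6 T84 arrays (0.0707 to 0.151), without Caco-2 replicate 3 (0.057) and with quantile normalization (0.0566). Centring the arrays on their ribosomal protein probe sets, which moves the median of all probe sets to 0.14, left TGFB3 short of the threshold and gave 14 list genes higher and 2 lower.

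Between the lines, the PDGF family of PDGFC and PDGFRA had no common direction. Among the 14 other genes measured from the PDGF and VEGF list, the test put 2 up, 2 down and 10 in neither class for treated T84 against Caco-2. For untreated T84 it put 2 up, 3 down and 9 in neither. The shares over all probe sets were 19.4% up and 26.2% down for treated T84 and 19.5% and 24.2% for untreated T84. The other PDGF ligand genes, named after their values were seen, gave log2 differences from Caco-2 of 0.05 and -0.18 for PDGFA, 0.23 and 0.26 for PDGFB, and -0.11 and -0.13 for PDGFD in treated and untreated T84. Of these 6 differences, PDGFB in untreated T84 alone passed, at a limma adjusted p of 0.0497. That call was lost with 7 of the 9 arrays left out singly (limma adjusted p up to 0.156), all but untreated T84 replicate 1 and Caco-2 replicate 1. Without Caco-2 replicate 1 PDGFB also passed in treated T84 (0.31, adjusted p = 0.0165). PDGFRB, the beta receptor, was lower in T84 by -0.62 ± 0.09 and -0.46 ± 0.09 log2 units (SE; limma adjusted p = 0.000524 and 0.00298, n = 3 per group), and both calls were lost with ribosomal protein centring (-0.16 in each). VEGFA, the main angiogenic ligand, was higher by 1.01 and 1.05, and its relative VEGFB lower at -0.90 and -0.64. The untreated VEGFB call was lost with ribosomal protein centring (adjusted p = 0.0551). CSF1R was lower in untreated T84 (-0.35, with -0.12 and no call in treated T84) and FLT3LG higher in treated T84 (0.24, with 0.10 and no call in untreated T84). The first call was lost with ribosomal protein centring, and the second (limma adjusted p = 0.0332) when treated replicate 1 or 3, untreated T84 replicate 1 or Caco-2 replicate 3 was left out (0.051 to 0.113), and with an intensity trend (0.0552) or array weights (0.0565).

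The list of pleiotrophin had 6 measured genes, namely its relative MDK, the receptor gene PTPRZ1 and 4 syndecan genes. For these, treated T84 against Caco-2 gave 0 up and 4 down and untreated T84 gave 1 up and 4 down, with median log2 differences of -0.35 and -0.44. Over all probe sets 26.2% and 24.2% were lower in these comparisons, and the share for so few genes was not tested. MDK was bright in both lines, with means of 12.74 ± 0.02 for treated T84, 12.58 ± 0.10 for untreated T84 and 13.22 ± 0.03 for Caco-2 (SD, n = 3 each). It was lower in T84 by -0.48 and -0.64 log2 units (limma adjusted p = 0.000133 and 2.72e-05, n = 3 per group), and the first call was lost with ribosomal protein centring (-0.03). The syndecan genes SDC4 and SDC2 were lower by -1.17 and -1.23 and by -0.96 and -0.99, while SDC1 was higher in untreated T84 by 0.68. SDC4 was read on a suffix x probe set, which may cross-hybridise. SDC2 was dim, below the lower quartile in every array. In treated T84 SDC1 was at 0.15 (limma adjusted p = 0.295), which passed without Caco-2 replicate 1 (0.28, adjusted p = 0.0225). PTPRZ1, the receptor phosphatase, was near the floor in all groups (3.56, 3.55 and 3.78 on average in treated T84, untreated T84 and Caco-2). Its difference in treated T84 was -0.22 (limma adjusted p = 0.0213). It turned to 0.23 with ribosomal protein centring, and lost its call when treated replicate 1 or 2 or Caco-2 replicate 2 or 3 was left out (0.0526 to 0.0681). In untreated T84 the PTPRZ1 difference was -0.23 (limma adjusted p = 0.0207), and 0.07 with no call under ribosomal protein centring. That call was also lost when untreated T84 replicate 1 or 3 or Caco-2 replicate 2 or 3 was left out (limma adjusted p up to 0.0727).

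The TGF beta and GDNF list of GDF15 held genes of both directions. Its 12 measured genes split into 3 up and 4 down for treated T84 against Caco-2, and 3 up and 3 down for untreated T84, which is near the shares of all probe sets given above. The receptor genes parted. TGFBR2 was higher in T84 by 1.02 and 1.25 log2 units, while TGFBR3, the betaglycan co-receptor gene, was lower by -2.56 ± 0.36 and -2.33 ± 0.36 (SE; limma adjusted p = 0.000433 and 0.000824, n = 3 per group). TGFBR3 read 7.39 in Caco-2 replicate 1 and 8.72 and 8.71 in the others, and a low replicate 1 was also seen for PTN and PDGFRA. Without that array its differences were -3.00 and -2.78. TGFB1 was higher by 0.80 and 0.29 in treated and untreated T84 (limma adjusted p = 7.49e-05 and 0.0233), and the second call was lost when untreated T84 replicate 2 or Caco-2 replicate 2 or 3 was left out (up to 0.0807). TGFBR1 was lower by -0.45 and -0.51 (limma adjusted p = 0.00283 and 0.00151). With ribosomal protein centring its differences were 0.0049 and -0.21 and neither passed (limma adjusted p = 0.964 and 0.0684). The GDNF family receptor gene GFRA3 was lower by -0.91 and -0.85.

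The EGF and HGF list, with 10 genes measured, had 4 up and 1 down for treated T84 against Caco-2, and 5 up and 2 down for untreated T84. Over all probe sets 19.4% were up and 26.2% down for treated T84, and 19.5% and 24.2% for untreated T84. The share for so few genes was not tested. MST1R, the receptor for macrophage-stimulating protein, was higher by 3.03 ± 0.13 and 2.76 ± 0.13 log2 units (SE; limma adjusted p = 2.18e-07 and 4.67e-07, n = 3 per group), next in size to GDF15 among the list genes that were higher in T84. The gene of its ligand, MST1, was lower by -1.03 and -0.89 on a probe set that may cross-hybridise. AREG, which encodes amphiregulin, was higher by 1.97 and 1.57, BTC, which encodes betacellulin, by 0.79 and 0.53, and ERBB3 by 1.01 in untreated T84. In treated T84 ERBB3 was at 0.18 (limma adjusted p = 0.167), which passed without Caco-2 replicate 1 (0.29, adjusted p = 0.0118). Of the 14 listed proteases that release or cut growth factors, BMP1 alone was measured, and it was higher in untreated T84 by 0.40. In treated T84 it was at 0.15 (limma adjusted p = 0.116), which passed without Caco-2 replicate 1 (0.23, adjusted p = 0.00405). Over the 5 lists 9 genes were up and 11 down in treated T84 (46.5% past the test, beside 45.6% of all probe sets). In untreated T84 they were 12 and 12 (55.8%, beside 43.7%). With ribosomal protein centring, which moves the medians of all probe sets to 0.475 and 0.317, the counts were 32 and 6 and then 29 and 6, so the balance of directions depends on the scaling.

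**Figure D3:**
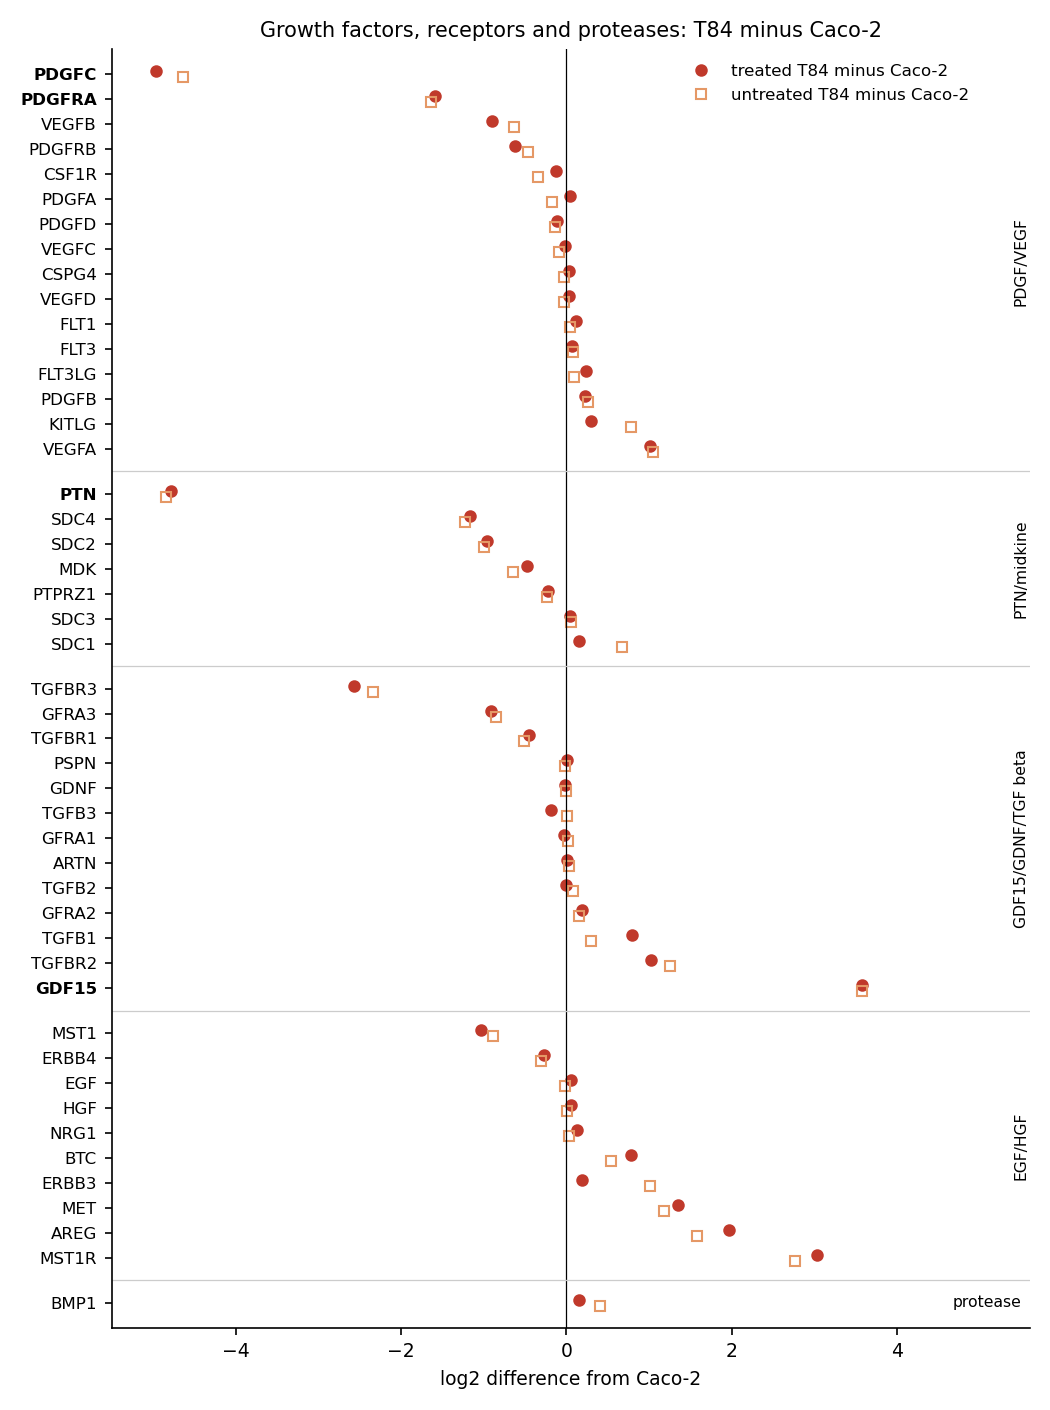
Log2 difference from Caco-2 of treated T84 (filled circles) and untreated T84 (open squares) for the measured genes of the 5 lists, ordered within each list, with the 4 genes in bold. PDGFC and PTN lie lowest, at -4.96 and -4.78 in treated T84, and GDF15 highest, at 3.58, while the other genes lie between -2.56 and 3.03 in treated T84.

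The genes with the nearest patterns were sought among 926 other genes by the root mean square difference of centred log2 values over the 9 arrays. The arrays share only 3 groups, so nearness mostly means a like difference between the lines. For PDGFC the nearest was FGFR2, a fibroblast growth factor receptor gene, at 0.163 log2 units, followed by the glypican gene GPC3 (0.222), the fetuin gene AHSG (0.257), PTN (0.277) and the galectin gene LGALS2 (0.464). PTN on its suffix x probe set had PDGFC (0.277), FGFR2 (0.285), GPC3 (0.349), AHSG (0.382) and LGALS2 (0.553). On its other probe set the nearest were the branching enzyme gene GCNT2 (0.437), PDGFC (0.449), the asialoglycoprotein receptor gene ASGR2 (0.453), IGFBP3 (0.484) and FGFR2 (0.515). PDGFC was among the 5 nearest genes on both PTN probe sets. PDGFC and PTN were both chosen on the difference between the lines, so nothing is read from their nearness.

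GDF15 had the interferon-induced gene IFITM1 at 0.164, the galectin-3 binding protein gene LGALS3BP at 0.198, the glypican gene GPC4 at 0.224, the fucosyltransferase gene FUT3 at 0.277 and the sulfotransferase gene CHST7 at 0.316. Their group means exceeded those of Caco-2 by 3.04 to 3.88 log2 units in treated and 2.90 to 3.74 in untreated T84. PDGFRA had the chaperone gene CANX (0.179), the hyaluronan receptor gene LAYN (0.183), the scavenger receptor gene COLEC12 (0.201), CSF2RA (0.274) and IL9 (0.308). COLEC12 had a Caco-2 SD of 0.55 and CANX of 0.46, beside 0.58 for PDGFRA. PDGFRA itself was 1.53 log2 units from PDGFC and 1.52 from the suffix x probe set of PTN by the same measure, and GDF15, which ran the other way, was 3.96 and 3.97 from them.

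**Figure D4:**
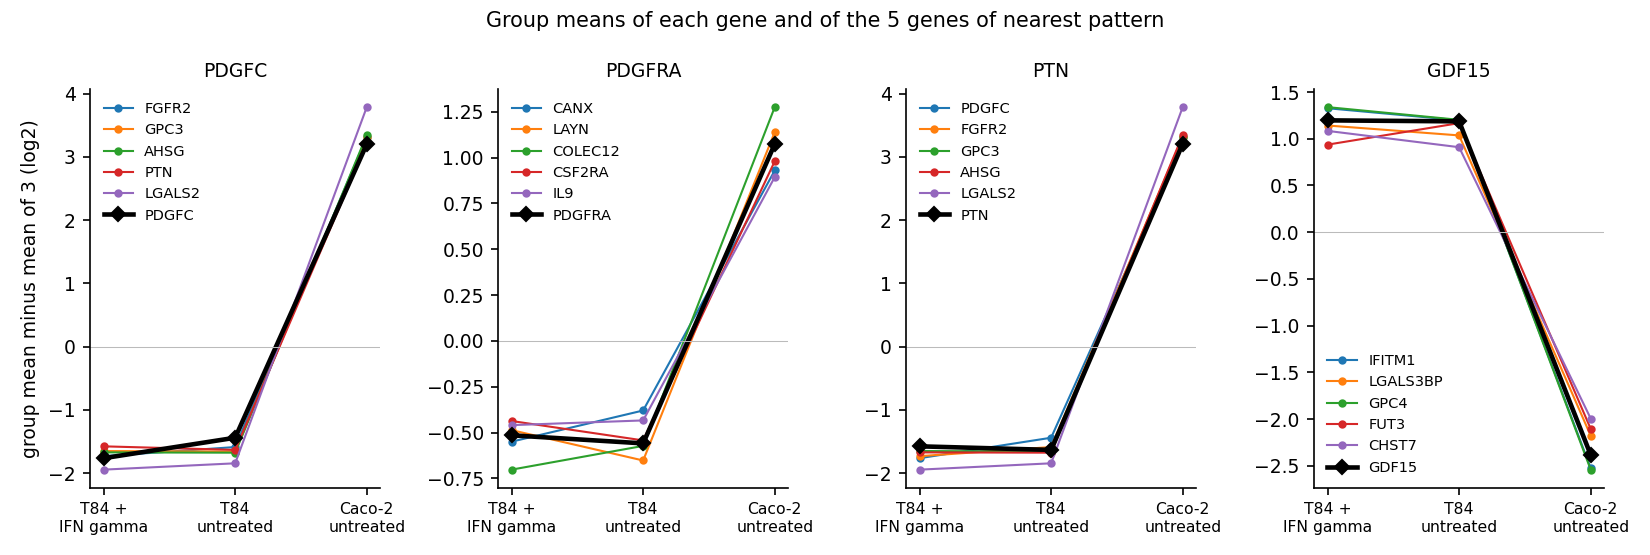
Group means minus the mean of the 3 groups (log2) for each of the 4 genes (black diamonds; PTN on its suffix x probe set) and the 5 genes of nearest pattern, with a separate scale in each panel. The T84 groups stay together in every panel, below Caco-2 for PDGFC, PDGFRA and PTN and above it for GDF15.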

How the data were processed

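RNA of 3 treated T84, 3 untreated T84 and 3 Caco-2 samples was extracted with Trizol, and 0.5 ug of total RNA was labelled for single-colour Affymetrix-type arrays, per the labels' protocols. The deposited values are log2 signals per probe set, made by the authors with RMA per the submitters' processing notes. The version of RMA, the genome build and any later filter were not given in the sources used here. No further normalization was applied. RefSeq identifiers, matched without version to a RefSeq table (GRCh38.p14), gave 1 symbol to 1043 of 1259 probe sets. A gene stood for its probe set with the highest mean, and all member probe sets were kept.

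A group-means model over the 9 arrays was fitted in limma 3.58.1 (R 4.3.3, two-sided test, 6 residual and 2.12 prior degrees of freedom), with Benjamini-Hochberg adjustment over 1259 probe sets at 0.05. Errors are SDs of groups and SEs of the fit, and 3 arrays per group limit the precision. The members, gene lists and tests were chosen with earlier results of these data known. Named genes were the members, up to 4 genes of each list past the test in a comparison by adjusted p, and the 5 of nearest pattern. Values of these list genes in the other comparison with Caco-2 were added afterwards. Simulated data with known changes served to check the fit. Other settings tried were the T84 arrays alone, a replicate block, other moderation, array weights, other scaling, a filter on dim probe sets, leaving out single arrays and the other PTN probe set. Figures used matplotlib 3.10.9 and pandas 2.3.3 in Python 3.11.15.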

Additional observations from a re-analysis of the deposited data

How the results depend on the processing

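The interferon gamma comparison left PDGFC, PTN, PDGFRA and GDF15 short of the threshold under every alternative run. PDGFC stayed negative throughout, from -0.40 to -0.17 log2 units, with limma adjusted p values from 0.0645 (without Caco-2 replicate 1) to 0.377. With single arrays left out it ran from -0.40 to -0.26, PDGFRA from 0.01 to 0.08, PTN from -0.0027 to 0.11 and GDF15 from -0.05 to 0.12. The sign of the PTN difference turned without treated replicate 1, and that of GDF15 with median centring (-0.0105), without treated replicate 3 (-0.0509) and without untreated T84 replicate 1 (-0.036) or 3 (-0.0474). PDGFRA was among the probe sets removed by the filter on dim signals, which kept 944, so it has no value there. The PTN probe set without a suffix letter, with a lower mean than PDGFRA, was removed too. Under that filter PTN therefore rests on its suffix x probe set alone. The filter used the mean over all 9 arrays. PDGFC and this PTN probe set, below the lower quartile in every T84 array, passed it through their Caco-2 signal. It therefore cannot tell whether the interferon gamma results of PDGFC and PTN rest on background signal. Between treated and untreated T84, same-numbered arrays had correlated deviations for replicates 1 and 3 (r = 0.386 and 0.561) and not for replicate 2 (-0.0237), and 3 of 6 T84 arrays were nearest to their own number in the other T84 group. With Caco-2 included, r of same-numbered arrays ran from -0.64 to 0.56, so the numbers were not taken as pairs. Arrays of unlike number reached stronger values. Untreated T84 replicate 3 had r = 0.756 with Caco-2 replicate 1 and -0.699 with Caco-2 replicate 2. The source of such shared deviations was not tested. With the replicate block PDGFC had an adjusted p of 0.0662, and list genes past the test after interferon gamma numbered 2, beside 4, since SDC1 (0.0658) and TGFB3 (0.12) no longer passed. FLT3LG in treated T84 against Caco-2 did not pass with the block either (0.0719).

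Against Caco-2 all 4 genes kept their direction. With ribosomal protein centring treated T84 differed by -4.51 for PDGFC, -4.33 for PTN, -1.14 for PDGFRA and 4.03 for GDF15, and untreated T84 by -4.34 for PDGFC and 3.87 for GDF15. The other PTN probe set gave -4.05 and -4.17. With single arrays left out, treated T84 ran from -5.05 to -4.87 for PDGFC, -5.13 to -4.52 for PTN, -1.92 to -1.36 for PDGFRA and 3.51 to 3.69 for GDF15, and untreated T84 from -4.73 to -4.55, -5.19 to -4.58, -1.96 to -1.40 and 3.46 to 3.68. Probe sets called after interferon gamma numbered 128, beside 231 with array weights, 360 with ribosomal protein centring and 86 to 178 with single arrays left out. Against Caco-2, 574 were called for treated and 550 for untreated T84, beside 1088 and 1033 with ribosomal protein centring (914 higher and 174 lower, and 845 and 188) and 521 to 640 and 480 to 600 with single arrays left out. List genes called after interferon gamma numbered 7 with array weights, 16 with ribosomal protein centring and 2 to 5 with single arrays left out. The 2 came without treated replicate 1 or 2 or untreated T84 replicate 2 or 3. PTPRZ1 in treated T84 against Caco-2 turned to 0.23 with ribosomal protein centring. The cause of these shifts was not tested.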
